A study of Mus musculus with 3 samples.

Results

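Palatal tissue after fusion was compared with palatal tissue during fusion, on the 2 of 3 Affymetrix mouse genome arrays of the series that carry these titles. Both arrays held total RNA from the median tissue of the palate, dissected from maxillae of E14 ICR mouse fetuses, the explants having been kept in suspension in BGJb medium with penicillin and streptomycin under oxygen and carbon dioxide for 24 h (during fusion, when the seam between the shelves is present) or 60 h (after fusion, when it has gone). No gene was altered and no agent was added at either stage; the third array, from the shelf edge before fusion at 5 h, is used here only to place values. Several samples were collected at each stage and their RNA was prepared separately, the sources used here do not say whether RNAs were combined for an array, and each stage has 1 array. There are therefore no replicates and no test, hours in culture and stage of fusion cannot be told apart, and the spread at hand is the one among probe sets for the same gene.

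All 45037 probe sets other than controls were taken, with signals scaled to one 2% trimmed mean and raised to a floor of 13.3 during and 14.7 after fusion, the background read from probe sets of sensory receptors. Of 18193 genes with a probe set, each represented by its brightest, 14352 lay above the floor on at least 1 of both arrays and 12807 on both. A ratio with one signal under the floor is a bound and is written "at least". Signals under the floor are printed as scaled and are not ranked, and ratios compare 1 probe set between arrays, never one gene with another. Between probe sets of one gene, the SD of the log2 ratio was 0.44 over 5940 genes, and 0.26 over the 2639 genes with signals over 100 on both arrays.

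In the mouse, the shelves of the secondary palate meet at the midline, their medial edge epithelia form a seam, and the seam disappears so that mesenchyme becomes continuous. The epithelium left on the oral side becomes a stratified squamous layer, that on the nasal side becomes a pseudostratified layer with ciliated and secretory cells, and bone forms in the mesenchyme between them. Multiciliated cells arise when regulators such as *Foxj1* and the Rfx factors switch on the genes of the axoneme, the microtubule core of the cilium with its dynein arms, radial spokes and central pair.

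After fusion, 1262 genes were over 2-fold higher than during fusion and 721 were over 2-fold lower, which is 8.79% and 5.02% of the 14352. Each list count below is to be read beside these shares. By the brightest probe set, the large differences were mostly upward: past 4-fold there were 376 higher and 51 lower genes, and past 8-fold there were 121 higher and 3 lower. Among the dimmer probe sets of named genes, 94 were higher and 78 lower past 4-fold, and among probe sets naming no gene 20 and 20. The median log2 ratio of the 14352 genes was -0.03, with quartiles at -0.39 and 0.36. Other scalings moved that median by between -0.14 with the hybridization controls and 0.14 with one median, so differences near 2-fold depend on the scaling more than the larger ones do. Of 788 genes past 2-fold with several probe sets above the floor, 635 had all of them in one direction and 10 had one past 2-fold the other way. Among genes whose brighter signal was at least 1000, 109 were higher and 32 lower.

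**Figure D1:**
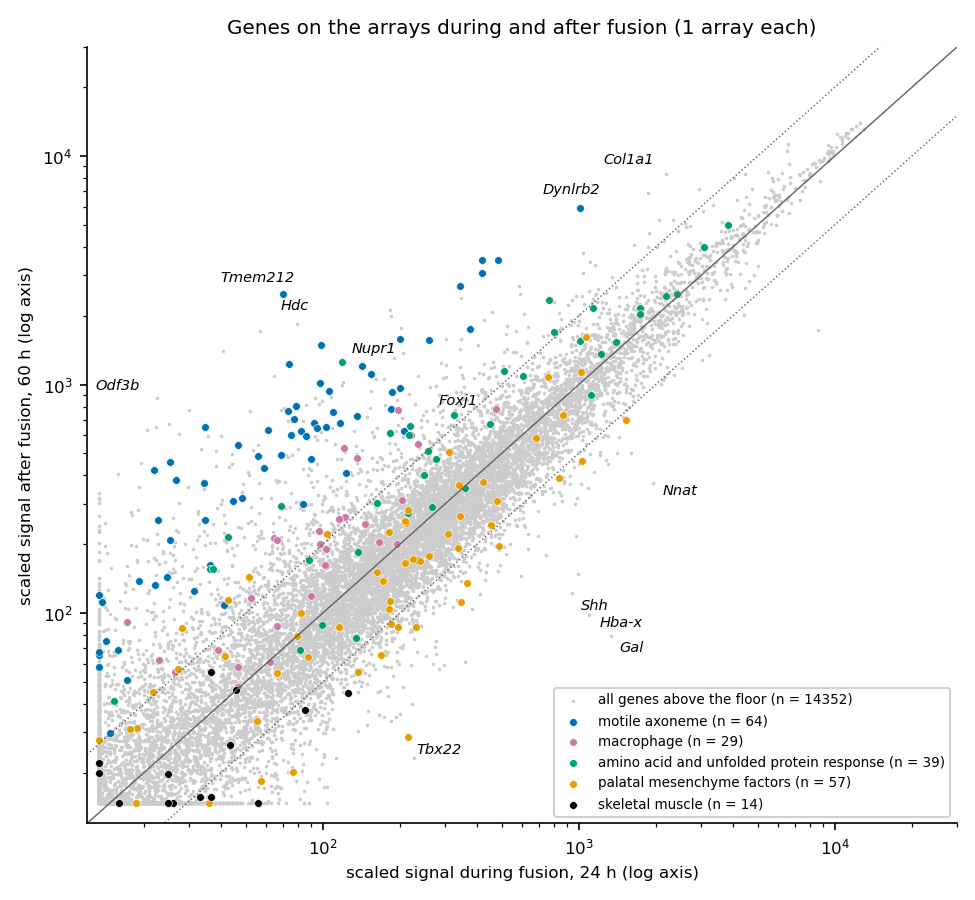
Scaled MAS5 signal of each gene during fusion (x, log axis) and after fusion (y, log axis), 1 array each, with signals under the floor drawn at it; the solid line marks equal signals and the dotted lines 2-fold. All 64 genes of the motile axoneme list, chosen with earlier results known, lie above the upper dotted line, while *Gal*, *Hba-x*, *Shh* and *Tbx22* lie well below the lower one.

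Genes of motile cilia stood highest. The members of the axonemal list were chosen with earlier results of these data known, so its share past 2-fold may not hold for other axonemal genes. *Dnah1*, outside the list, did not pass by its brightest probe set. Every one of the 64 listed axonemal genes above the floor was over 2-fold higher after fusion, with ratios and bounds from 2.01 to 35.4 and a median log2 ratio of 2.85 (all genes, -0.03). The remaining member, *Dnaaf6*, was under the floor on both arrays. Their probe sets numbered 83, of which 78 were over 2-fold higher and none was lower, and 44 of the genes had been under the floor before fusion. *Tmem212* measured 13.3 before, 70.1 during and 2479 after fusion, 35.4-fold higher than during fusion. *Dnali1*, a light chain of the inner dynein arms, went from 74.02 to 1234 (16.7-fold), and its other probe set was 10.4-fold higher. *Ak8*, an adenylate kinase of cilia, went from 25.3 to 457 (18.1-fold). Also needed in sperm tails, *Ttc29* went from 34.7 to 651 (18.7-fold). Both *Cfap299* and *Fam183b* were in the same range, *Cfap299* going from 21.9 to 421 (19.2-fold) and *Fam183b* from 98.3 to 1482 (15.1-fold). Armadillo repeat gene *Armc3* went from 46.6 to 543 (11.7-fold), and its second probe set was 18.2-fold higher. The summed signal of 5 markers fixed for multiciliated cells was 127 before, 1971 during and 11399.6 after fusion. In a bulk sample, more cells of a type and more RNA per cell cannot be told apart.

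The cilium genes that share the symbols Cfap and Dnah were also counted whole, a grouping made after the values were seen. Cfap genes numbered 23, and by the brightest probe set 19 were over 2-fold higher and none was lower. *Cfap97* was the one member with a ratio under 1 (0.655). Their median log2 ratio, 2.70, was the highest of 246 symbol groups with at least 8 genes, followed by the dynein heavy chains (Dnah, 2.30), of which 7 of 9 were higher. Among the heavy chains, *Dnah12* equalled the floor during fusion (13.3) and was at least 9.04-fold higher after it (120.3), and *Dnah9*, of the outer arms, had a ratio of 7.25 (19.1 and 138). *Dnah1* was the exception among those with both signals past the floor. Its brightest probe set had a ratio of 0.928 (140.4 and 130.3), and its other probe set was 4.04-fold higher.

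Regulators of multiciliated cells mostly had ratios over 1 (14 of 17). Of 17, 7 were over 2-fold higher and none was lower, with a median log2 ratio of 0.80. *Foxj1*, the transcription factor of motile ciliogenesis, stood at 3.90 before, 263 during and 979.9 after fusion (3.73-fold over during fusion). *Ccno*, which acts in the multiplication of centrioles, had 25.6, 455 and 1185 (2.61-fold). *Foxj1* was under the floor before fusion, and both genes were well above it during fusion. The Rfx factors *Rfx2* and *Rfx3* were 6.17-fold and 3.03-fold higher, although the second *Rfx2* probe set had a ratio of 0.967. *Fank1* was 6.62-fold higher, with all 4 probe sets over 2-fold, and *Cdc20b*, a neighbour of *Ccno* in the multiciliogenesis locus, 4.39-fold. The list of intraflagellar transport, which builds both primary and motile cilia, and of primary cilium genes had 13 of 33 over 2-fold higher and none lower, and 31 of them had ratios over 1. The Ift genes among these, counted by symbol, had 7 of 14 over 2-fold higher. *Ift172* was 3.62-fold higher (143 to 516) and *Ift88* 2.74-fold (183 to 503), and none of the list had been under the floor before fusion.

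Promoters of the axonemal genes were read because Rfx factors bind a known element, the X-box, and *Rfx2* and *Rfx3* were over 2-fold higher. Of 51 axonemal genes above the floor with a promoter in the RefSeq table (GRCm38.p6, 250 bases before to 50 after the start), 10 held a match to the RFX X-box on either strand (19.6%), against 2.06% of the 11518 genes above the floor with a promoter and 1.53% of all 32851 promoters. The stretches of 60 bases printed here are 4 of those matches, chosen for lying wholly before the start of genes with different roles: *Dynlrb2* (a dynein light chain, 1009 during and 5908 after fusion, 5.86-fold), *Dnaic2* (an intermediate chain of the outer arms, 117 and 676, 5.80-fold), *Tekt2* (a tektin, 109.8 and 757, 6.89-fold) and *Lrrc23* (a radial spoke gene, 420.1 and 3066, 7.30-fold). Capitals mark the match, and the strand is that of the gene; a match is a description of the letters and no measured binding.
*Dynlrb2* (chr8:116504940-116504999, plus strand): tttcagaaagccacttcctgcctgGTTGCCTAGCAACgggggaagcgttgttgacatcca
*Dnaic2* (chr11:114727359-114727418, plus strand): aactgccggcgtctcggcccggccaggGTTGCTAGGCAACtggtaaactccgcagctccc
*Tekt2* (chr4:126325689-126325748, minus strand): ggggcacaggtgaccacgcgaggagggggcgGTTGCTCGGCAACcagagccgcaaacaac
*Lrrc23* (chr6:124779856-124779915, minus strand): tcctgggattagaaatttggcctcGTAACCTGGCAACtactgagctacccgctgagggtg

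**Figure D2:**
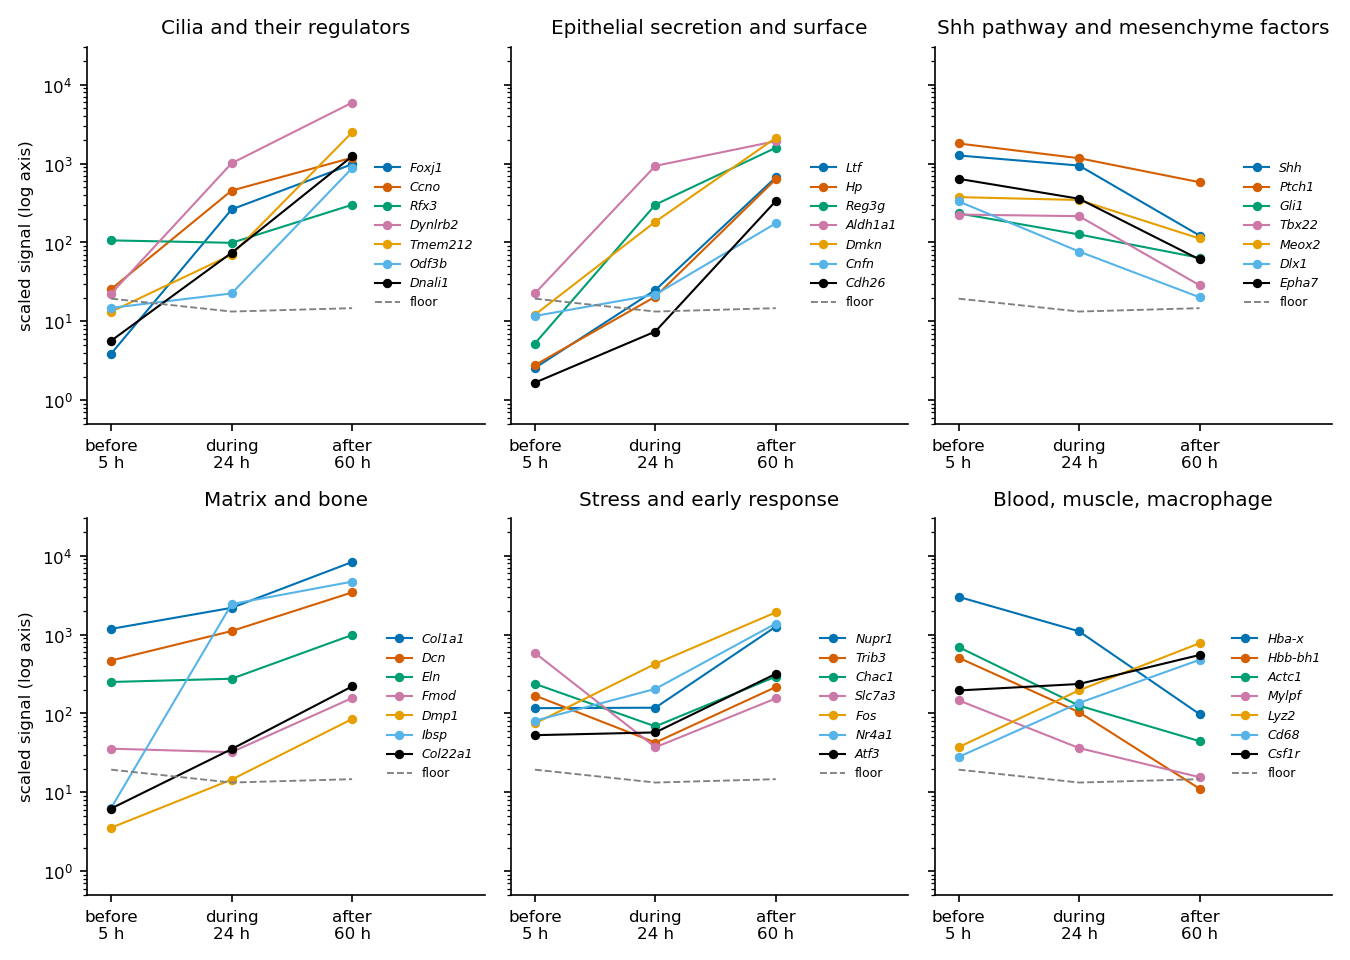
Signal after scaling (log axis) of named genes, each by its brightest probe set, on the arrays before (5 h), during (24 h) and after fusion (60 h), 1 array per stage, with the background floor of each array dashed. *Tmem212* goes from 70.1 during to 2479 after fusion, *Shh* from 943 to 122, *Col1a1* from 2180.4 to 8301 and *Trib3* from 169 before through 42.8 during to 216 after fusion.

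Where both signals passed the floor, the largest ratios belonged to the sperm tail relative *Odf3b* (22.6 during and 874 after fusion, 38.7-fold by an _x_at probe set, 15.5-fold and 18.7-fold by its others), *Tmem212*, the coiled-coil gene *Ccdc153* (40.7 and 1403, 34.5-fold), the haptoglobin gene *Hp* (20.6 and 634, 30.8-fold) and *Ppp1r32* (22.3 and 653, 29.3-fold). They were followed by *Ltf*, the radial spoke gene *Rsph14* (25.6-fold), *Prr29* (23.2-fold), *Hdc*, the dynein light chain relative *Tctex1d4* (22.5-fold) and *Ccna1*, an A-type cyclin (27.5 and 608, 22.1-fold). The largest bounds, for genes under the floor during fusion, were those of the epithelial cadherin *Cdh26* (7.44 during and 335 after fusion, at least 25.2-fold), *Fstl5* (7.71 and 319.8, at least 24.02-fold, with the other probe set at least 11.03-fold) and the calretinin gene *Calb2* (4.96 and 315, at least 23.6-fold). The autophagy receptor gene *Calcoco2* was at least 19.9-fold higher, *Tmem232* at least 18.04-fold, *Cfap61* at least 17.1-fold, *Spata18* at least 17.01-fold and *Morn3* at least 15.3-fold.

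Secretory genes of airway and gland epithelium were also higher, 16 of 35 over 2-fold and none lower, with a median log2 ratio of 0.97. *Ltf*, the iron-binding lactoferrin, went from 24.98 during to 668 after fusion (26.8-fold), and *Lcn2*, which binds bacterial siderophores, from 23.7 to 184 (7.75-fold). The antibacterial lectin *Reg3g* read 5.24 before, 302 during and 1586 after fusion (5.26-fold over during fusion). The protease inhibitor gene *Slpi* was 4.72-fold higher, the aldehyde dehydrogenase *Aldh3a1* 5.10-fold and the membrane mucin *Muc4* 6.71-fold, with 2.13-fold for its other probe set. Detoxifying enzymes, many of them expressed by the same epithelia, had 14 of 42 higher and 2 lower. *Cyp2s1* was 4.15-fold higher (90.3 to 374) and the glutathione transferase *Gstm1* 3.03-fold (567 to 1715), while the aryl hydrocarbon receptor targets *Cyp1a1* and *Cyp1b1* were 2.04-fold and 2.23-fold lower. *Fmo2* had a ratio of 1.85, and none of its 4 probe sets above the floor passed 2-fold.

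Genes of stratified and cornifying epithelium had 13 of 38 over 2-fold higher and none lower. The dermokine gene *Dmkn* gave signals of 12.2 before, 183 during and 2117 after fusion (11.5-fold over during fusion), and *Cnfn*, cornifelin of the cornified envelope, went from 21.9 to 175 (8.001-fold). The small proline-rich gene *Sprr3* was 4.39-fold higher, the keratin *Krt6b* 3.88-fold, and *Krt13*, the keratin of oral mucosa, 2.34-fold (366 to 855), with all 3 of its probe sets over 2-fold. S100a genes, many of which are expressed in stratified epithelium, had 4 of 11 higher and none lower, with *S100a6* 2.46-fold (839.8 to 2063) and *S100a1* 3.09-fold (129.7 to 401). The uroplakin list had 1 of 5 lower, *Upk3bl* (2.47-fold). Of 18 genes of the basal layer, 2 were over 2-fold higher (11.1%, near the 8.79% of all genes), *Cav1* (2.49) and *Itga3* (2.10), and *Trp63*, the master factor of stratified epithelium, had a ratio of 0.892. Genes shared by epithelia went both ways, 5 higher and 3 lower of 34, with *Krt18* of simple epithelium at 2.26 (2329 to 5259) and *Epcam* at 0.815 (2545 to 2074). The summed signal of 7 epithelial markers fixed for the check of tissue was 15429 during and 22039.7 after fusion, that of 10 palatal mesenchyme markers 12829 and 14558, and all of them lay above the floor on both arrays. Single bright genes weigh on these sums: without its brightest marker the mesenchyme sum was 6198 during and 5334 after fusion, and the epithelial sum 12089.7 and 15926. Ratios were over 1 for 4 of 7 epithelial and 4 of 10 mesenchyme markers, and the part of tissue makeup in the values was not tested.

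Junction genes went both ways. Of 39, 5 were over 2-fold higher (12.8%) and 4 lower (10.3%), against 8.79% and 5.02% of all genes. Besides *Cdh26*, the tight junction scaffold *Tjp3* went from 87.97 to 431 (4.90-fold), and the claudins *Cldn3* and *Cldn9* were 3.02-fold and 2.79-fold higher, *Cldn3* with all 4 probe sets between 2.84 and 3.12. In contrast, *Cldn6*, a claudin of embryonic epithelium, went from 855 to 328 (2.61-fold lower), *Cldn8* from 469 to 196 (2.40-fold lower) and the protocadherin *Pcdh8* from 275 to 70.7 (3.88-fold lower, both probe sets over 2-fold). *Ceacam1*, the adhesion molecule studied by the paper, had a ratio of 1.89 by its brightest probe set and from 1.25 to 2.53 over 7 probe sets, 1 of them over 2-fold.

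Among the hedgehog, Wnt, BMP and TGFβ, FGF, Notch and guidance lists, *Shh* had the smallest ratio. It encodes the hedgehog ligand made by palatal epithelium, and its brightest probe set stood at 1266 before, 943 during and 122 after fusion, 7.70-fold lower than during fusion; the other probe set was at least 2.47-fold lower. Of the receptor and target genes, *Ptch1*, both receptor and target, went from 1168 to 581 (2.01-fold lower), *Gli1*, a target, from 126 to 63.9 (1.98-fold lower) and the mesenchymal target *Foxf2* from 169 to 65.8 (2.57-fold lower). The 2 values of *Ptch1* and *Gli1* lie on either side of 2-fold, and another of the 3 *Ptch1* probe sets had a ratio of 1.11. Going the other way, *Hhip*, an inhibitor that binds the ligand, was 2.21-fold higher (34.9 to 77.03). In all, 3 of 17 genes of the pathway were over 2-fold lower and 1 higher, 13 had ratios under 1, and the median log2 ratio was -0.34. By probe set the directions balanced, 4 higher and 4 lower of 36.

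Among transcription factors and signals of palatal mesenchyme, 15 of 57 were over 2-fold lower (26.3%) and 7 higher. *Tbx22*, a T-box gene in which mutations cause cleft palate, measured 226 before, 215 during and 28.7 after fusion, 7.51-fold lower than during fusion on its only probe set. The homeobox gene *Dlx1* went from 76.8 to 20.2 (3.80-fold lower) and the T-box gene *Tbx15* from 57.6 to 18.3 (3.14-fold lower). The homeobox gene *Meox2* went from 345 to 112 (3.08-fold lower), the bHLH-PAS gene *Sim2* from 366 to 136 (2.69-fold lower) and the LIM homeobox gene *Lhx6* from 230.1 to 86.99 (2.65-fold lower). Both probe sets of *Meox2*, of *Sim2* and of *Lhx6* were over 2-fold lower. *Osr2*, a factor of shelf growth, had a ratio of 0.687 (259 to 178), and its other probe set 1.21. Higher members were the early B-cell factors *Ebf1* (42.7 to 115, 2.68-fold), *Ebf2* (28.2 to 85.8, 3.04-fold) and *Ebf3* (51.6 to 144, 2.79-fold) and the forkhead genes *Foxc1* (2.14-fold) and *Foxc2* (2.10-fold). Before fusion, these 5 had signals of 93.4, 74.2, 150.2, 186 and 77.1, each higher than its own signal during fusion.

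In the guidance list of ligands and receptors, 5 genes were lower and 1 higher by over 2-fold of 38. *Epha7*, a receptor of ephrins, went from 640.2 before through 358 during to 60.9 after fusion, 5.88-fold lower than during fusion, and all 4 of its probe sets were over 2-fold lower. *Epha3* and *Epha4* were 2.22-fold and 2.27-fold lower by the brightest probe set alone. Their ligand genes *Efna4* and *Efnb2* were 2.11-fold and 2.06-fold lower, and the ligand gene *Slit3* was 2.67-fold higher. In the Wnt pathway 4 of 53 were over 2-fold higher and 4 lower (7.55% each), against 8.79% and 5.02% of all genes. The inhibitors *Wif1* (446 to 1074, 2.41-fold), *Sfrp4* (2.42-fold) and *Dkk2* (2.09-fold) and the receptor *Fzd9* (2.47-fold) were higher. The inhibitors and feedback genes *Apcdd1* (863 to 308, 2.80-fold lower, 5 of 6 probe sets over 2-fold lower) and *Rnf43* (2.56-fold), the ligand *Wnt16* (2.46-fold) and the receptor *Fzd10* (2.11-fold) were lower. The BMP and TGFβ list had 2 higher (*Gdf10*, 2.47-fold, and *Ltbp2*, 2.28-fold) and 1 lower of 46, the FGF list 2 and 0 of 25, and the Notch list none of 21. In these 3 lists the shares higher and lower were all under those of all genes. *Tgfb3*, the growth factor of the medial edge epithelium, had 306 before, 575 during and 357 after fusion, which is a ratio of 0.621. In the list of that epithelium 1 gene was over 2-fold higher (*Nectin1*, at least 2.47-fold) and 1 lower (*Cldn6*) of 17.

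Among retinoid genes, one was far lower after fusion and several were higher. *Cyp26a1*, which breaks down retinoic acid and is itself induced by it, stood at 212 before and 88.4 during fusion, and at 60 h it lay below background (6.81), at least 6.02-fold lower. *Adh1*, an alcohol dehydrogenase that acts on retinol, went from 283 to 896 (3.17-fold higher), *Adh7* was 2.67-fold higher, the retinaldehyde reductase *Dhrs3* 2.30-fold and the retinaldehyde dehydrogenase *Aldh1a1* 2.06-fold (934 to 1922). In all, 4 of 21 were over 2-fold higher and 1 lower.

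**Figure D3:**
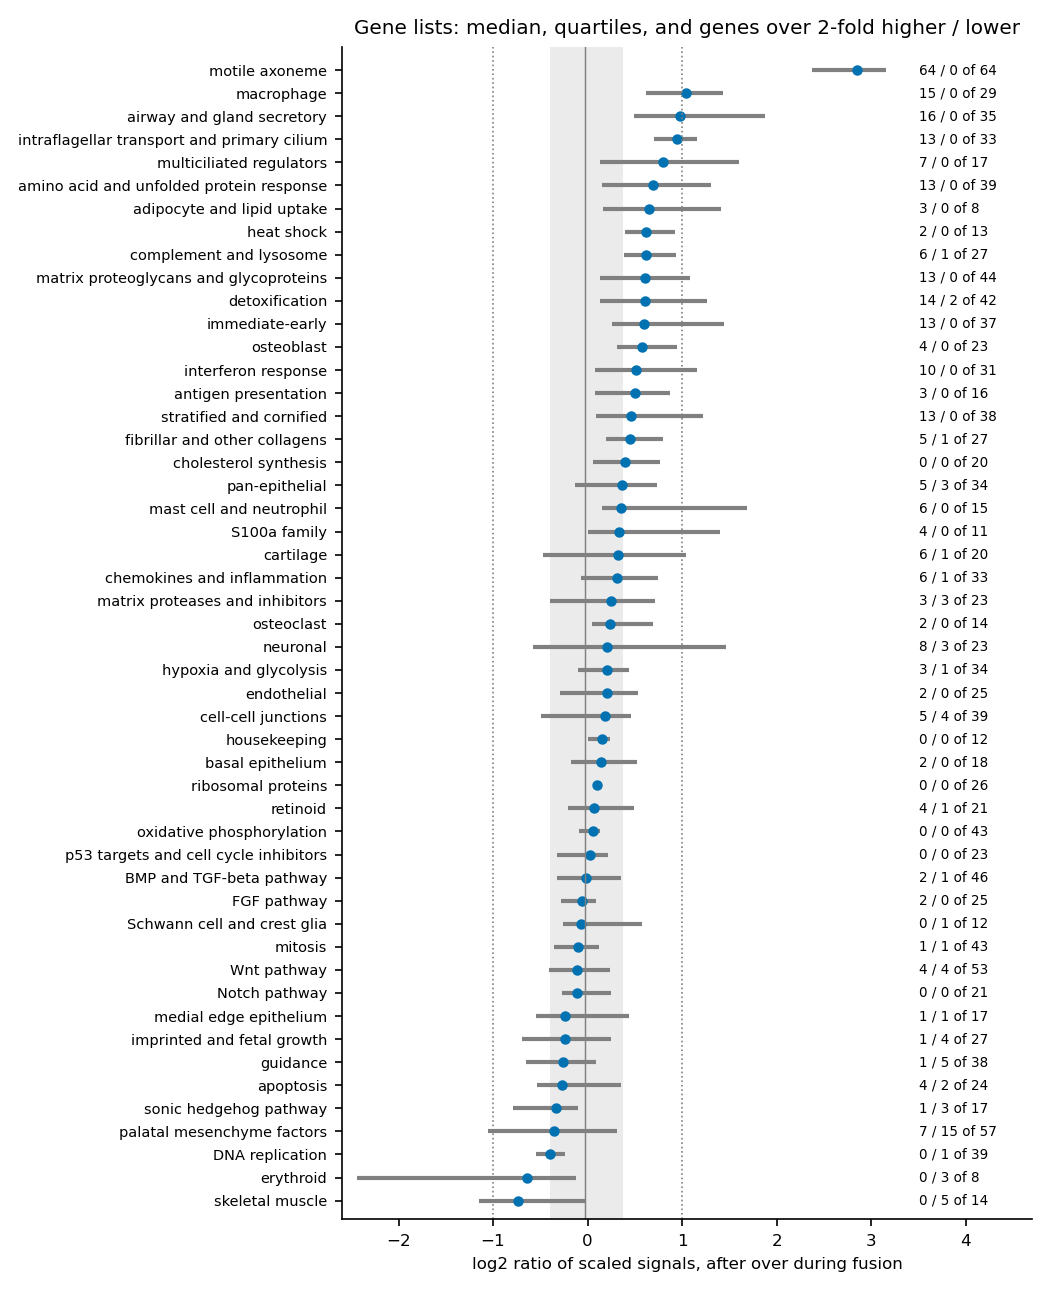
Median (point) and quartiles (bar) of the log2 ratio after over during fusion for the 50 gene lists with at least 8 genes above the floor, with the genes over 2-fold higher and lower at the right; the shaded band and line give the quartiles and median of all 14352 genes and the dotted lines 2-fold. Motile axoneme genes lie highest and skeletal muscle genes lowest.

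Lists of bone and matrix genes held more genes over 2-fold higher than lower, as did all genes (8.79% higher and 5.02% lower). The higher shares were 17.4% for osteoblast, 18.5% for collagen, 29.5% for matrix proteoglycan and glycoprotein, 30% for cartilage and 14.3% for osteoclast genes. Of 23 osteoblast genes, 4 were over 2-fold higher and none lower, and 20 had ratios over 1. *Col1a1*, which encodes a chain of type I collagen, had 1180.5 before, 2180.4 during and 8301 after fusion (3.81-fold over during fusion), and its other probe set 4.47-fold. *Dmp1*, a matrix gene of osteocytes, went from 14.5 to 85.02 (5.86-fold), while *Ibsp*, bone sialoprotein, had 6.35 before, 2431 during and 4680.3 after fusion, which is a ratio of 1.93, and 3.35 for its other probe set. *Sp7*, the osteoblast transcription factor, had a ratio of 0.879. Collagens had 5 of 27 higher and 1 lower, with *Col22a1* 6.23-fold higher (35.4 to 220.1, all 3 probe sets over 2-fold) and *Col25a1* 2.64-fold lower, with a ratio of 1.31 for its other probe set. Proteoglycans and glycoproteins of the matrix had 13 of 44 higher and none lower. The small proteoglycan *Fmod* went from 32.3 to 157 (4.85-fold), *Dcn*, decorin, from 1108 to 3419.6 (3.09-fold) and *Eln*, elastin, from 275 to 987 (3.58-fold). Over the probe sets of *Fmod*, ratios ran from 1.91 to 4.85. In cartilage genes 6 of 20 were higher and 1 lower, the higher ones led by the fibrillar collagens *Col11a2* (53.5 to 199, 3.72-fold) and *Col11a1* (292 to 840.2, 2.88-fold), which bone matrix also holds. Of 3 cartilage markers, 2 lay above the floor on both arrays, 1 with a ratio over 1 and 1 under 1. The third, the chondrocyte marker *Matn1*, was under the floor on both arrays. The summed signal of the 3 was 231 during and 240 after fusion. Of 14 osteoclast genes 2 were higher, the cathepsin *Ctsk* (205 to 589.8, 2.88-fold) and *Mmp9* (2.01-fold). *Timp4*, an inhibitor of matrix proteases, was under the floor during fusion and at least 6.18-fold higher after it.

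Matrix proteases went both ways, 3 genes of proteases and inhibitors higher and 3 lower of 23. *Mmp13*, collagenase 3, stood at 421 during and 451 after fusion, which is a ratio of 1.07. The gelatinase *Mmp2* was 2.08-fold higher, and *Mmp12* and *Mmp11* were 3.44-fold and 2.88-fold lower. Among the smallest ratios of all genes was that of the metalloprotease *Adamts18*, with 160.1 before, 226 during and 23.1 after fusion (9.81-fold lower, all 3 probe sets over 2-fold lower), and *Adamts16* was 5.53-fold lower (193 to 34.9), with a ratio of 1.37 for its other probe set, and *Adamts6* at least 4.88-fold. Of 14 Adamts genes above the floor, 4 were over 2-fold lower and none higher.

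The smallest ratio of all belonged to *Gal*, the gene of the neuropeptide galanin, with 29.7 before, 1337 during and 79.7 after fusion, 16.8-fold lower than during fusion on its only probe set. Its signal was thus high on the middle array alone. The embryonic globin *Hba-x* had 3006, 1098 and 98.1 on the same arrays (11.2-fold lower than during fusion). *Hbb-y* had 11444, 8584 and 1723 (4.98-fold) and *Hbb-bh1* 508, 104 and 11.1 (at least 7.06-fold). Globin genes are near copies of one another and their probe sets may share signal. Of 8 erythroid genes 3 were over 2-fold lower and none higher, and of 14 skeletal muscle genes 5 were lower and none higher. The troponin *Tnnt1* went from 55.7 to 5.82, under the floor (at least 3.79-fold lower), the cardiac actin *Actc1* from 126 to 44.6 (2.82-fold lower), the myosin light chain *Mylpf* from 36.5 to 15.6 (2.34-fold lower), and *Myod1* was under the floor on both arrays. The summed signal of 4 erythroid markers was 9888 during and 1933 after fusion, and that of 4 muscle markers 158 and 75.8. Blood and muscle markers were thus lower in the tissue taken at 60 h, and what part dissection has in this was not tested. After *Gal* and *Hba-x*, the smallest ratios with both signals above the floor were those of *Adamts18*, *Shh*, *Tbx22*, the ubiquitin ligase subunit *Wsb1* (991 to 149, 6.67-fold lower), *Minar2* (5.98-fold lower), *Epha7*, the zinc finger gene *Bnc1* of keratinocytes (101 to 17.4, 5.82-fold lower), *Zfp760* and the long noncoding RNA *Dancr* (200.5 to 36.00, 5.57-fold lower).

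Macrophage genes were higher, 15 of 29 over 2-fold and none lower, with 28 ratios over 1 and a median log2 ratio of 1.04. *Gpnmb*, a glycoprotein of lysosomes, went from 121 to 528 (4.36-fold), the lysozyme *Lyz2* from 197 to 776 (3.95-fold), *Cd68* from 136 to 478 (3.52-fold) and the chemokine *Ccl3* from 17.2 to 91.6 (5.34-fold). *Csf1r*, the receptor that defines the lineage, went from 236 to 551 (2.33-fold), and *C1qa* had a ratio of 1.03. The summed signal of 4 macrophage markers was 670.4 during and 1391 after fusion. Genes of mast cells and neutrophils had 6 of 15 higher, among them *Hdc*, which makes histamine (2.79 before, 79.4 during and 1835 after fusion, 23.1-fold over during fusion, other probe set 21.3-fold), *Ltf*, *Ngp* (15.6 to 93.9, 6.01-fold) and *S100a8* (58.5 to 213, 3.63-fold). Of 5 mast cell markers, 3 lay above the floor during and 3 after fusion. *Kit*, a receptor that other cells also express, had 139 during and 160.3 after fusion, *Cma1* 21.4 and 26.6, *Tpsb2* 15.5 and 11.1, *Cpa3* 7.25 and 29.8, and *Mcpt4* 0.826 and 1.97. Of 4 neutrophil markers, 2 passed the floor at 24 h and 2 at 60 h, and *Camp* was under it at both times. Among these markers, 2 had ratios over 1 and 1 had a ratio under 1. The summed signal of the 4 was 50.7 during and 134 after fusion. Without the brightest, *Ngp*, it was 35.1 and 39.9, so the rise in the sum rested mostly on that gene. Endothelial genes had 2 of 25 higher (8%, near the 8.79% of all genes) and none lower, with *Pecam1* at 1.10. Neuronal genes had 8 higher and 3 lower of 23: the stathmins *Stmn4* (at least 12.7-fold) and *Stmn3* (4.48-fold), *Elavl3* (3.91-fold) and *Tubb3* (23.97 to 87.2, 3.64-fold) were higher, and *Dcx* (2.32-fold, 2 of 3 probe sets), *Nnat* and *Gal* lower. The glial list had 1 of 12 lower (*Fabp7*, 2.53-fold) and none higher, with the crest factor *Sox10* at 44.7 during and 24.2 after fusion. Of 8 genes of lipid uptake 3 were higher: the fatty acid transporter *Cd36* (4.06-fold), the lipase *Lpl* (3.42-fold) and *Fabp4* (2.43-fold). The fat cell markers *Adipoq* and *Cidec* were under the floor on both arrays.

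Genes of the early response to growth factors and stress had 13 of 37 over 2-fold higher and none lower. *Nr4a1*, an orphan nuclear receptor, went from 205 to 1379 (6.73-fold), *Fos* from 425 to 1911 (4.50-fold), *Atf3* from 57.5 to 318 (5.53-fold) and *Zfp36*, whose product destabilizes mRNAs, from 148 to 718 (4.84-fold). Genes of the amino acid and unfolded protein response, many of them targets of Atf4, had 13 of 39 higher and none lower. Some of them were lowest on the middle array. *Trib3*, a pseudokinase, had 169 before, 42.8 during and 216 after fusion (5.05-fold over during fusion), *Chac1*, which breaks down glutathione, 237, 68.5 and 293 (4.28-fold), and the cationic amino acid transporter *Slc7a3* 585, 37.3 and 155 (4.16-fold). Each of these 3 was lowest during fusion. *Nupr1*, a stress-induced nuclear protein gene, had 117, 118 and 1260.0 (10.7-fold), and its 2 probe sets gave the same ratio to 3 digits. *Hspa4l*, a heat shock protein relative, was 8.19-fold higher (184 to 1503), and its other probe sets were from 3.92-fold to 4.91-fold higher. Of 31 interferon response genes, 10 were over 2-fold higher and none lower, with *Rsad2*, an antiviral enzyme, from 36.00 to 136 (3.79-fold) and *Ifit3* from 20.1 to 59.3 (2.95-fold). Antigen presentation had 3 of 16 higher, led by *Ctss*, a lysosomal cathepsin (346 to 925, 2.67-fold), and the list of complement and lysosome genes 6 of 27 higher and 1 lower. Of the inflammation list, 6 of 33 were higher and 1 lower, with *Cxcl17*, a mucosal chemokine, 7.49-fold and *Socs3*, a feedback inhibitor of cytokine signaling, 4.41-fold higher. Other probe sets of *Socs3* were 2.87-fold and 3.14-fold higher.

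The promoters of these response genes were searched for the elements of their known factors, on both strands of the same 300 bases. The amino acid response element, written TGATGNAAA or TGATGNAAT, was found in 4 of 34 list members with a promoter (11.8%), against 1.51% of genes above the floor and 2.12% of all promoters. Among the members over 2-fold higher, 3 of 11 held it. *Fgf21* also held it, with a log2 ratio of -0.79, the smallest of the list. The interferon-stimulated response element, TTTCNNTTTC, was found in 15 of 24 interferon response genes (62.5%), against 3.47% of genes above the floor and 3.44% of all promoters. Among the interferon genes over 2-fold higher, 5 of 8 held it, the same share as in the whole list. The other elements searched were the CArG box and the cyclic AMP response element (TGACGTCA) in immediate-early genes (4 of 29 and 3 of 29, against 1.51% and 3.34% of genes above the floor and 1.63% and 1.79% of all promoters), and the GLI site (GACCACCCA) in hedgehog genes (0 of 13, against 0.243% of genes and 0.253% of promoters). In lists of cell division and sterol synthesis, the E2F site (TTTCCCGC, TTTCGCGC, TTTGCCGC or TTTGGCGC) was in 14 of 34 replication genes (genes 4.42%, promoters 2.26%), the cell cycle homology region (TTTGAA) in 25 of 36 and CCAAT in 26 of 36 mitosis genes (genes 14.6% and 42.2%, promoters 17.9% and 37.4%), and the sterol element (TCACNCCAC) in 1 of 16 cholesterol genes (genes 1.43%, promoters 1.24%). Matches to different elements were counted separately and may overlap. Stretches of 60 bases from *Nupr1* and *Slc7a11*, a cystine transporter gene 4.30-fold higher (36.3 to 156), show the first element, and those from *Ifit3* and *Rsad2* the second, with every match in the stretch in capitals.
*Nupr1* (chr7:126625548-126625607, minus strand): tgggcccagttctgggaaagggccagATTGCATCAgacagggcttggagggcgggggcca
*Slc7a11* (chr3:50443628-50443687, minus strand): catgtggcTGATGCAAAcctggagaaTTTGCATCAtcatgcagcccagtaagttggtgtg
*Ifit3* (chr19:34583382-34583441, plus strand): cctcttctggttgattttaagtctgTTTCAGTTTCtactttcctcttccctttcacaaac
*Rsad2* (chr12:26456538-26456597, minus strand): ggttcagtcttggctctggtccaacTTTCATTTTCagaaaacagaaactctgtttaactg

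Few genes of the cell cycle and of cell upkeep passed 2-fold. Of 39 DNA replication genes, 1 (*Ung*, 2.06-fold) was over 2-fold lower and none higher, yet 32 had ratios under 1 and the median log2 ratio was -0.40; *Pcna* went from 2946 to 2369 (1.24-fold lower). Of 43 mitosis genes, 1 was higher and 1 lower, with a median of -0.10. The higher one was the centrosomal kinase *Nek2*, from 235 to 1089.5 (4.63-fold), whose 4 probe sets ran from 1.10 to 4.63. *Mki67*, a marker of cycling cells, had a ratio of 0.661. The cyclin kinase inhibitor *Cdkn1a* stood at 232 before, 2392 during and 3834 after fusion, which is a ratio of 1.60, and none of the 23 genes of its list passed 2-fold. In the list of hypoxia and glycolysis 3 of 34 were higher (8.82%, near the 8.79% of all genes) and 1 lower. The peptide hormone *Adm* was 3.26-fold higher (74.1 to 241) and the glucose transporter *Slc2a3* 2.18-fold lower (605 to 277). By the brightest probe set, none of 43 genes of oxidative phosphorylation, of 26 ribosomal protein genes, of 20 cholesterol synthesis genes or of 12 housekeeping genes passed 2-fold. Outside these lists, *Cox7c*, another subunit of oxidative phosphorylation, was at least 4.13-fold lower (60.7 to 11.05, both probe sets over 2-fold), and the ribosomal protein gene *Rpl12* was 4.91-fold lower (173 to 35.2) on its only probe set above the floor. These signals were low beside the median brighter signals of their symbol groups, 891 for Cox and 9649 for Rpl genes. Counted by symbol alone, 1 of 23 Rpl genes and 2 of 28 Rps genes were over 2-fold lower and none higher. The *Cox7c* probe set ends in _s_at, and which transcripts it and the *Rpl12* probe set read was not tested. The apoptosis list had 4 higher and 2 lower of 24; *Apaf1*, of the apoptosome, went from 285 to 127 (2.24-fold lower), with both probe sets over 2-fold. Of imprinted and fetal growth genes, 4 of 27 were lower and 1 higher. *Nnat*, neuronatin, had 4422 before, 1941 during and 372 after fusion (5.22-fold lower than during fusion), and the noncoding RNA *Meg3* went from 1277 to 466 (2.74-fold lower), with 7 of 11 probe sets over 2-fold lower and ratios from 0.089 to 0.888.

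**Figure D4:**
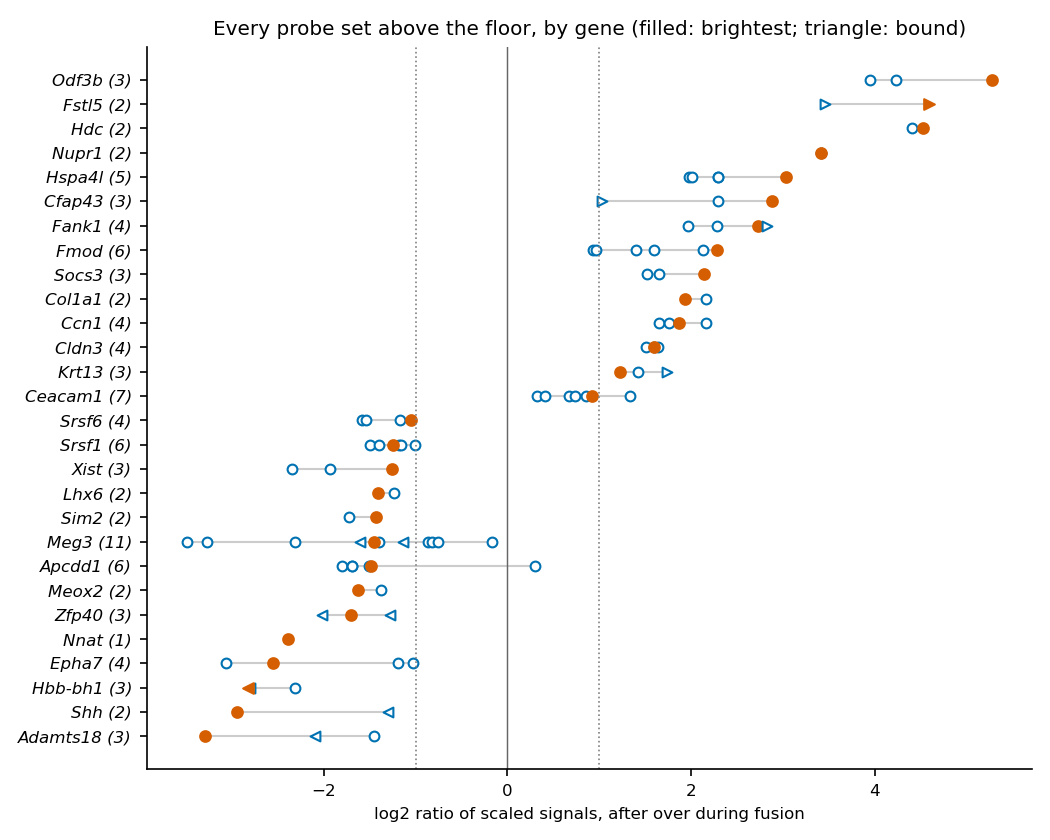
Log2 ratio after over during fusion of every probe set above the floor on at least 1 array (number in brackets) for 28 genes; filled symbols are the brightest probe set, triangles are bounds, and dotted lines mark 2-fold. The 11 *Meg3* probe sets spread widest on the lower side, while the probe sets of *Nupr1* and of *Cldn3* nearly coincide.

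A group of genes outside the lists was lower together, seen when genes were grouped by symbol after the values were known. Of 314 genes whose symbol is Zfp and a number, most of them zinc finger transcription factors, 69 were over 2-fold lower (21.97%, against 5.02% of all genes) and 3 higher (*Zfp474*, *Zfp36* and *Zfp473*). Their median log2 ratio was -0.51 and 269 had ratios under 1. *Zfp760* went from 222 to 39.8 (5.58-fold lower), *Zfp329* from 206 to 47.4 (4.33-fold lower, both probe sets over 2-fold) and *Zfp40* from 65.1 to 20.02 (3.25-fold lower, all 3 probe sets over 2-fold). The lowest median of any such group was that of the SR splicing factors, -0.81 for 10 Srsf genes, 4 of them over 2-fold lower. *Srsf1* went from 3022 to 1278 (2.36-fold lower), with all 6 probe sets over 2-fold lower, and *Srsf6* from 2089 to 1007 (2.08-fold lower), with all 4, whereas *Srsf4* had a ratio of 1.02. *Srsf5* and *Srsf2* were 2.14-fold and 2.03-fold lower by the brightest probe set.

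Probe sets that name no gene in the annotation leaned the same way. Of 31406 probe sets that passed the floor, 2075 (6.61%) were over 2-fold higher and 2224 (7.08%) lower. Of the 4205 that name no gene, 117 were higher and 501 lower, 18.9% of those past 2-fold being higher, against 63.6% of genes by the brightest probe set and 40.7% of the dimmer probe sets of named genes. The share of all probe sets past 2-fold that were higher, 48.3%, thus depends on which probe sets are counted, and it also ran from 34.5% with the hybridization controls to 64.00% with one median. The ratio of 5′ to 3′ signal of *Actb*, a check of RNA integrity, was 0.713 during and 0.718 after fusion. The share of probe sets above the floor was 65.8% during and 61.5% after fusion. What part RNA quality or labelling has in these counts was not tested.

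**Figure D5:**
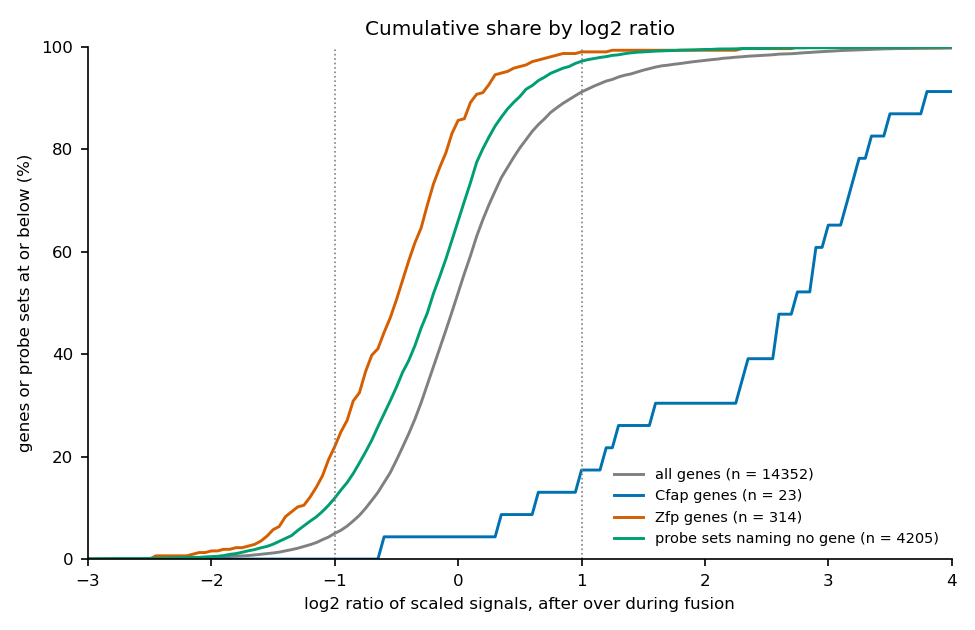
Cumulative share (%, y) of genes or probe sets at or below each log2 ratio after over during fusion (x) for all genes, Cfap genes, Zfp genes and probe sets naming no gene, all above the floor; dotted lines mark 2-fold. The Zfp curve lies left of that of all genes, with 21.97% past the left line, and the Cfap curve far to the right, with 82.6% past the right line.

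The labels give the sex of every sample as female, and 3 Y-linked genes were above the floor on both arrays. *Eif2s3y* had signals of 196 during and 113 after fusion, *Uty* 74.7 and 42.5 and *Kdm5d* 63.5 and 34.8, while *Xist*, which silences the X chromosome in females, had 3224 and 1351 (2.39-fold lower after fusion, all 3 probe sets over 2-fold lower). All 4 were thus lower after fusion, *Xist* alone past 2-fold. Signals of Y-linked genes and of *Xist* stood side by side on both arrays, where the labels name females only. How many fetuses of each sex lay behind an array cannot be read from these values.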

How the data were processed

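Total RNA of palatal tissue was hybridized by the authors to Affymetrix mouse genome arrays, 1 per stage. The labels name the RNeasy Plus Micro Kit for RNA and the study's methods name Trizol, and which was used is unclear. The deposited values are linear MAS5 signal intensities, already scaled by the authors; cell-level files and detection calls were not used here. Of 45101 probe sets, 64 controls were left out. Each array was set to one 2% trimmed mean (factors 0.918 during and 0.986 after fusion), and signals were raised to a floor, percentile 95 of the 81 probe sets for sensory receptors. Ratios of the scaled signals were calculated with Python 3.11.15, numpy 2.4.6 and pandas 2.3.3, figures were drawn with matplotlib 3.10.9, and the steps were tested on simulated data. Platform annotation named 1 gene for 34945 probe sets, several for 932 and none for 9160; 34741 symbols were matched to RefSeq, and a gene took its brightest probe set by the mean of both arrays. Probe sets ending in _x_at or _s_at can bind related transcripts.

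Genes past 2-fold were counted over 52 lists of 1562 genes, of which 1441 had a probe set and 75 stood in several lists. The members and lists were chosen with earlier results of these data known. Named genes are the 14 largest and 14 smallest ratios above the floor on both arrays, the 8 largest bounds each way, up to 6 members each way past 2-fold per list, and marker genes set in the lists. Groups by symbol, their members, and the genes with printed promoters were chosen after their values were seen, as were *C1qa*, the mast cell markers, *Fgf21*, *Rpl12*, *Eif2s3y*, *Uty* and *Kdm5d*. With 1 array per stage no p-value was computed, and the number of arrays limits the precision. Alternatives were other floors, 5 other scalings, a 4-fold threshold and a gene's median in place of its brightest probe set.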

Additional observations from a re-analysis of the deposited data

How the results depend on the processing

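With 1 array per stage the ratios have no replicate check, no array could be left out and no test was made. No paired analysis was possible because the stages have 1 array each. The 2075 probe sets over 2-fold higher and 2224 over 2-fold lower became 6203 and 7648 with no floor, 499 and 158 at a 4-fold threshold, and 1262 and 721 when genes were counted by the brightest probe set. With the floor raised to the array medians, 1385 were lower. Over the other scalings and floors the higher count ran from 1453 to 2695 and the lower count from 1516 to 3120. Of 52 gene lists, 20 had a median more than 0.44 from 0, and between 15 of them (hybridization controls) and 20 stayed past it under one setting at a time. The median of the mast cell and neutrophil list was 0.35 with the floor and 1.51 with no floor or a floor at the array medians. Of 244 named genes past 2-fold, 176 stayed past it in every setting and 68 did not in at least 1. Those that turned direction were *Chad* (-0.10), *Dlx6* (-0.088) and *Fgf2* (-0.048) with a floor at the array medians and *Chrdl1* (0.11) with the median over its probe sets, all as log2 ratios. The cause was not tested. Signals near the background limit the ratios of dim genes to bounds.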
